A study of Mus musculus with 7 samples.

Results

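The genes described here are 9 members of the vitamin D and retinoid receptor pathways, Vdr, Rxra, Rxrb, Rara, Cyp24a1, Cyp27b1, Cyp26a1, Trpv6 and Cd14, out of 21884 protein-coding genes of the mouse annotation. For each gene, every peak of open chromatin that overlapped the gene body or the 30 kb on either side of it was taken, and peaks of different libraries that overlapped by at least 1 bp were merged into 1 open chromatin region (OCR). The 9 windows held 136 merged OCRs of 144931 in the genome. The members were named for their roles in these pathways.

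Vdr encodes the vitamin D receptor, a nuclear receptor that binds calcitriol and acts on DNA as a heterodimer with a retinoid X receptor (Rxra, Rxrb), and Rara encodes a retinoic acid receptor that uses the same partner. The enzymes close the loop: Cyp27b1 makes calcitriol, Cyp24a1 degrades it and is the classical gene induced by the receptor, and Cyp26a1 degrades retinoic acid and is induced by the retinoic acid receptors. Trpv6, an epithelial calcium channel, and Cd14, a co-receptor for lipopolysaccharide on myeloid cells, are known targets of the vitamin D receptor, and both ligands are known to steer the maturation of myeloid precursors.

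The chromatin came from HPC7, an established line of mouse hematopoietic progenitors kept in stem cell factor, and was read by bulk ATAC-seq, in which a transposase inserts adapters into accessible DNA. There were 7 libraries, HPC7-1, HPC7-2 and HPC7-4 to HPC7-8, each from a culture batch of its own, and the labels give all of them the same cell line, cell type and medium and no treatment. The names of the peaks begin with VD in the lists of HPC7-1, HPC7-2 and HPC7-4 (3 lists) and with EtOH in those of HPC7-5 to HPC7-8 (4 lists). Neither the labels nor the methods say what these letters stand for, so they are used below as marks of the lists and not as treatments.

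The lists held 84593 to 132852 peaks, with HPC7-1 the longest, and its background of 20.4 reads at a summit compared with 4.44 to 7.45 in the other libraries. The promoters of 9 of 9 progenitor marker genes held a peak in all lists, at mean percentiles from 89.4 (Gata2) to 99.9 (Lyl1). Among marker genes of other cells, Alb, Ins2 and Krt5 had no promoter peak in any list, Neurod1 and Cd3e had one in some lists, and Myod1 (61.4) and Col1a1 (71.6) had one in all lists, although those of Myod1, Neurod1 and Cd3e were in no list with promoters of 1 kb. Intensity is given as the percentile of a peak's fold enrichment over background among all peaks of its own library, because fold enrichment moves with depth. Values of single libraries are given in library order, HPC7-1, HPC7-2 and HPC7-4 (VD) and then HPC7-5 to HPC7-8 (EtOH). In bulk libraries a region open in fewer cells and a region less open in each cell cannot be told apart.

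The regions on which the results below turn are shown first, as 300 bases of mm10 read on the plus strand. They are centred on the summit of the peak with the highest fold enrichment of any library in the OCR. The set holds the Vdr promoter (chr15:97907257-97907556), the upstream Vdr region with the lowest p of the windows among shared OCRs (chr15:97918088-97918387), the Cyp24a1 region found in the VD lists alone (chr2:170459956-170460255), the strongest Cyp24a1 region outside any promoter (chr2:170503437-170503736) and the strongest Cyp26a1 region (chr19:37716071-37716370). Capitals mark GAGGAA, the core bound by PU.1, or AGATAA, bound by GATA factors, on either strand. The 300 bases can reach past an OCR: the GAGGAA marked for Cyp24a1 OCR 1 lies beyond the end of that OCR at chr2:170460234.
Vdr OCR 18: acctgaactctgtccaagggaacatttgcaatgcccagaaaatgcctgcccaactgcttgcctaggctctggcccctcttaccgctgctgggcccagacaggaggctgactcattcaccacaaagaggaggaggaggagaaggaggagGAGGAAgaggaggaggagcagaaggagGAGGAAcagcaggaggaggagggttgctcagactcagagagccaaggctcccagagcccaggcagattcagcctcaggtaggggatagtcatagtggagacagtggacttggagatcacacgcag
Vdr OCR 20: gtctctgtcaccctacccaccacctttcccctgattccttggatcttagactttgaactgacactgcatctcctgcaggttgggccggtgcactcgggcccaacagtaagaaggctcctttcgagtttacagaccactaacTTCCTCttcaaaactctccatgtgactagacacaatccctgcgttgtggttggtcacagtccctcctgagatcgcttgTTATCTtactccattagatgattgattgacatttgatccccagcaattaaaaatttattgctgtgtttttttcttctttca
Cyp24a1 OCR 1: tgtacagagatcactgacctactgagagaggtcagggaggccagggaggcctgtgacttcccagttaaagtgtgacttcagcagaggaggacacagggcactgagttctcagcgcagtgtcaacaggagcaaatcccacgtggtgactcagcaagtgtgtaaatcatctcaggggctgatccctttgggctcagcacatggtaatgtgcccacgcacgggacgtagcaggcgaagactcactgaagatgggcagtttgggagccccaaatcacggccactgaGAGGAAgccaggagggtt
Cyp24a1 OCR 6: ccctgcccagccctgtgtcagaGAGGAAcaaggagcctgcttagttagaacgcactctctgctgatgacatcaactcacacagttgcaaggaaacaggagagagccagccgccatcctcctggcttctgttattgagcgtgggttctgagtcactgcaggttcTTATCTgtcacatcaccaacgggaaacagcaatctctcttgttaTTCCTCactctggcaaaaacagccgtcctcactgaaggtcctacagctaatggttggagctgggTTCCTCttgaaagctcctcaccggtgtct
Cyp26a1 OCR 9: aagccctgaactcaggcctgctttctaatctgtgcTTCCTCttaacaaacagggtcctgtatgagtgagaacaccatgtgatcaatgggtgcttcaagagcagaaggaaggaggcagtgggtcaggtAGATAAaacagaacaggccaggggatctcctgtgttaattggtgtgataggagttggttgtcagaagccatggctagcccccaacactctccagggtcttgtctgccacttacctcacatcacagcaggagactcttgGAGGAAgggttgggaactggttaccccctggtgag

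Nuclear receptor dimers are known to bind direct repeats of a half-site, and the spacing of the repeat is known to favour one partner over another: DR3, with 3 bases between the half-sites, the vitamin D receptor with its RXR partner, and DR2 and DR5 the retinoic acid receptors with theirs. The half-sites searched were AGGTCA and its variants with the letters AGTTCA or with GGGTCA or with GGTTCA, in any pair on one strand, at spacings of 1 to 5 bases (DR1 to DR5), on both strands, and matches of different motifs could overlap. The regions with a match that are printed here are a DR1 at the start of H2-Ke6, a neighbour of Rxrb (chr17:34027868-34027967, 100 bases) and a DR2 in the Cyp27b1 window (chr10:127072247-127072546), on the plus strand of mm10, with capitals for the repeat and its spacer.
Rxrb OCR 6: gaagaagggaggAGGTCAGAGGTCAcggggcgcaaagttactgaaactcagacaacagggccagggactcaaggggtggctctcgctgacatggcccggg
Cyp27b1 OCR 11: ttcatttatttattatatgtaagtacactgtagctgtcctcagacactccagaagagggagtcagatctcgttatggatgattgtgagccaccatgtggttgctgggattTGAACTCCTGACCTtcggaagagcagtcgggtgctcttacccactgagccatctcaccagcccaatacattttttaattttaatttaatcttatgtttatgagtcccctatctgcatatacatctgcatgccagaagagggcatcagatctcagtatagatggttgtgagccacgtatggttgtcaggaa

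Of the 136 OCRs, 2 held a DR1 (Rxrb OCR 6 and Cd14 OCR 4), 1 held a DR2 and 0 held a DR3, DR4 or DR5 in these 300 bases. Over all merged OCRs the shares were 0.176% for DR1, 0.286% for DR2, 0.146% for DR3, 0.124% for DR4 and 0.141% for DR5. AGATAA was found in 23 member OCRs (16.9%, against 18.5% of all) and GAGGAA in 49 (36.0%, against 35.7%). The members' regions thus held the progenitor factors' motifs about as often as the regions of the genome at large, and a match is a string of letters and not a bound site.

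The RefSeq promoter table (GRCm38.p6, 250 bases before to 50 after a start) matched 7 of the 9 genes. The Cyp26a1 promoter (chr19:37697558-37697807, plus strand, the bases before the start alone) held a DR5, in capitals, on the minus strand.
Cyp26a1 promoter: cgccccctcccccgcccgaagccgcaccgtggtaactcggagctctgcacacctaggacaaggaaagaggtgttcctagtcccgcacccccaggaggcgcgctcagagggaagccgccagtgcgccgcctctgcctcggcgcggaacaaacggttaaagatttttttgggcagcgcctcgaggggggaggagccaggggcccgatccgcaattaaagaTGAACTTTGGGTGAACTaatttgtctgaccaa
Its first base lies 32 bases before the start. A DR5 was found in 32 of 32851 promoters of that table (0.0974%), and no list held a peak within 3 kb of a Cyp26a1 start, as described below.

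Of the 136 OCRs of the windows, 75 (55.1%) had a peak in all 7 lists, against 46.2% of all merged OCRs. The 75 had mean fold enrichments from 3.34 to 159, with a median of 15.9, and a median percentile of 73.6, against 66.0 over the 66979 merged OCRs present in all lists. A further 21 OCRs (15.4%, against 17.9% of all) were found in 1 list, 17 of them in HPC7-1 alone, at fold enrichments from 1.82 to 3.60. The regions found in 1 list were thus mostly those of the library with the longest list. The lowest fold enrichment in a list was 1.68 in HPC7-1 and 2.13 to 2.44 in the other libraries.

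By position, 18 OCRs overlapped a promoter of a member, defined as the 3 kb on either side of any annotated transcript start, and 13 of these were in all lists at a median percentile of 86.1. Another 40 overlapped the promoter of a neighbouring gene, 25 of them in all lists at a median of 85.6. Only 24 lay in a member's gene body outside promoters (11 in all lists, median 67.0) and 54 in the flanks (26 in all lists, median 60.4). Much of the strong signal in the windows therefore sat at the starts of other genes, which are named with each member.

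**Figure D1:**
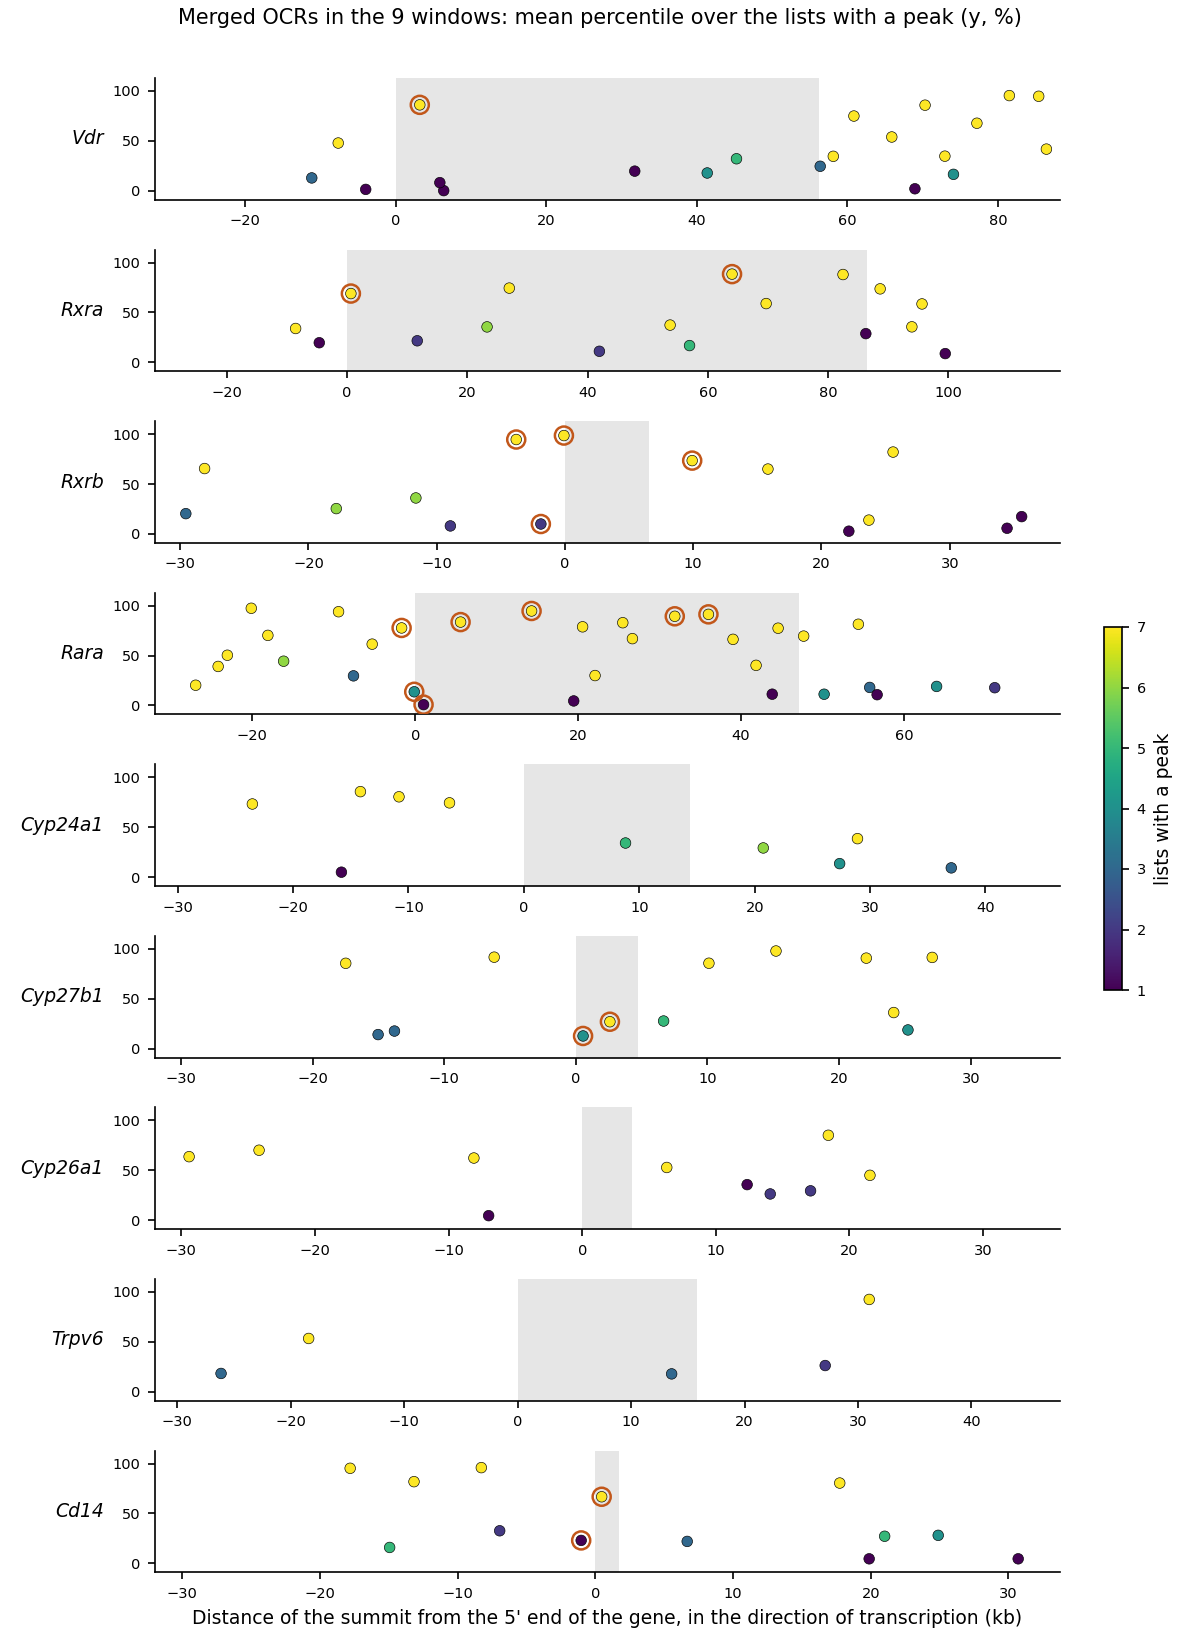
Each row is the window of 1 gene, with the distance of an OCR's summit from the 5′ end of the gene in kb on the x axis and the mean percentile over the lists with a peak on the y axis; the colour gives the number of lists with a peak. Rara carried the most OCRs (32) and Trpv6 the fewest (5), and no OCR lay within 3 kb of a start of Cyp24a1, Cyp26a1 or Trpv6.

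The receptor genes were open at a promoter in every library. At Vdr (chr15:97854425-97910630, minus strand) the promoter peak was OCR 18, whose summit lay in an intron 904 bp from the nearest transcript start. Its percentile was 89.4, 84.5 and 85.3 in the VD lists and 86.3, 83.1, 85.7 and 88.5 in the EtOH lists. The mean was 86.1 ± 2.20 (SD, n = 7), at a fold enrichment of 37.7 ± 7.80. The 7 values lay within a narrow band, yet only 24.2% of the 13303 promoters with a peak in all lists were weaker. The Vdr promoter was thus open but below the median of these 13303, which stood at 93.1. The promoters without a peak in every list are not counted in that median.

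Inside the Vdr gene body, beyond that promoter, 0 of 5 OCRs were found in all lists. They were intronic, OCR 13 was in 5 lists at fold enrichments of 3.67 to 5.29 and OCR 14 in 4, and the other three were in 1 list each. On the 5′ side of the gene 1 of 3 OCRs was in all lists, OCR 20, at 47.8 ± 9.80 (SD, n = 7). The strong regions of the window lay beyond the 3′ end, toward Hdac7, a histone deacetylase gene: OCR 3 reached 95.4 ± 0.872 and OCR 7 85.8 ± 2.78, both overlapping an Hdac7 promoter, and OCR 2 reached 94.7 ± 1.16 outside any promoter (SD, n = 7 for each).

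Rxra (chr2:27676440-27762957, plus strand) encodes the retinoid X receptor that is the partner of most of these receptors. It held 2 promoter OCRs of unequal strength. OCR 3 lay at the 5′ end of the gene, 112 bp from a start, with percentiles of 77.4, 68.9, 60.7, 67.0, 68.1, 67.2 and 73.1 in library order. OCR 10, at an exon 266 bp from an internal start, had 91.4, 86.3, 87.9, 89.2, 84.1, 88.3 and 91.7. The internal promoter region was thus the stronger of the pair in every library, at 88.4 ± 2.71 against 68.9 ± 5.21 (SD, n = 7).

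Of the Rxra gene body 4 of 9 further OCRs were in all lists, all of them in introns. OCR 12, near the 3′ end, differed from the internal promoter by less than the SD, at 88.0 ± 2.85, and OCR 6 stood at 74.4 ± 4.37. Beyond the 3′ end, OCR 14 stood at 73.6 ± 5.24 (SD, n = 7). No OCR of this window overlapped the promoter of another gene, so the Rxra window was the only one besides that of Cyp26a1 with no such region.

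Rxrb (chr17:34031812-34038399, plus strand), the second retinoid X receptor gene, had the strongest promoter of the 9. Its OCR 8 lay 77 bp from an Rxrb start and 53 bp from the start of Slc39a7, a zinc transporter gene, and the signal of the neighbours cannot be told apart there. The percentile was 99.4, 98.4 and 97.6 in the VD lists and 98.8, 98.3, 98.5 and 98.8 in the EtOH lists, with a mean fold enrichment of 159. The mean of 98.6 ± 0.552 (SD, n = 7) was above that of 88.0% of the promoters with a peak in all lists.

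The other promoter OCRs of Rxrb were shared as well. OCR 6 (94.6 ± 1.22), whose sequence with the DR1 is printed above, had its summit 21 bp from the start of H2-Ke6 and 3795 bp from the nearest Rxrb start, so that only the edge of its 5480 bp reached the Rxrb promoter. OCR 9 (73.5 ± 4.79) lay toward Col11a2, and OCR 7 was in 2 lists (SD, n = 7). Outside the Rxrb promoters the strongest regions were OCR 13 (82.0 ± 3.44), OCR 2 (65.5 ± 7.61) and OCR 10 (65.0 ± 6.90), of which the first and last overlapped Col11a2 promoters.

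Rara (chr11:98927818-98974942, plus strand) encodes the retinoic acid receptor that is rearranged in acute promyelocytic leukaemia. It was the most densely open of the 9 loci: 21 of its 32 OCRs were in all lists, which is 1.96 per 10 kb, against a median of 0.499 over all genes, and 98.9% of genes had fewer. Of its 9 gene body OCRs outside promoters 7 were in all lists, compared with 0 of 5 at Vdr.

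The strongest Rara promoter region was OCR 14, an intronic block 8436 bp wide with its summit 2392 bp from a start. Its percentile was 97.6, 95.0, 92.8, 94.3, 94.1, 93.5 and 95.6 in library order, with a mean of 94.7 ± 1.56 (SD, n = 7). Its mean fold enrichment was 93.1, and its mean percentile was above that of 59.7% of the promoters with a peak in all lists. Further promoter OCRs in all lists stood at 77.7 (OCR 10), 83.6 (OCR 13), 89.4 (OCR 20) and 91.3 (OCR 21), so that Rara was open at several of its starts, while OCR 11, 118 bp from the first start, was in 4 lists and OCR 12 in 1. Outside its promoters the strongest were OCR 4 (97.4 ± 0.462), 106 bp from the start of the replication gene Cdc6, OCR 7 (94.0 ± 1.39), which overlapped another Cdc6 promoter, and the intronic OCR 18 (82.9 ± 3.23; SD, n = 7).

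**Figure D2:**
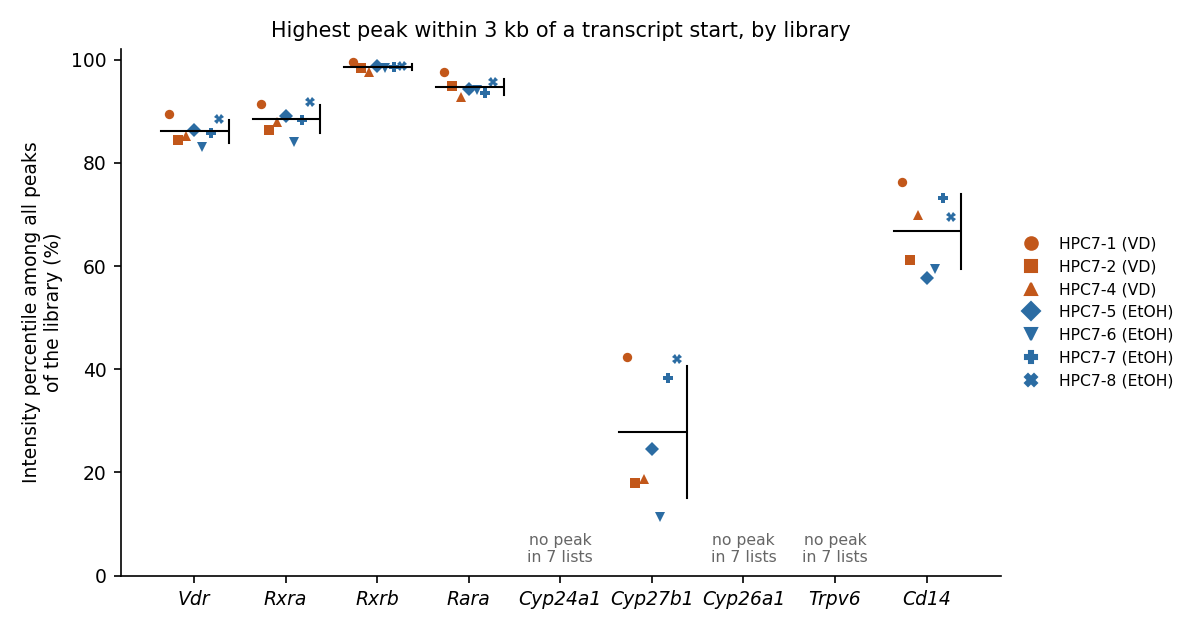
The y axis is the percentile of the highest peak within 3 kb of a transcript start among all peaks of the library, and each point is 1 library, with the bar at the mean and the SD over 7 libraries. The 4 receptor genes sit between 83.1 and 99.4, Cd14 between 57.6 and 76.3 and Cyp27b1 between 11.3 and 42.5, and Cyp24a1, Cyp26a1 and Trpv6 have no promoter peak.

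Of the 3 enzyme genes among the members none had a promoter peak as strong as those of the receptors. Cyp27b1 (chr10:127048250-127053006, plus strand) had one in all lists that was among the weakest of the 13303 promoters with a peak in all lists. Its percentile was 42.5, 17.9 and 18.7 in the VD lists and 24.5, 11.3, 38.2 and 41.9 in the EtOH lists. The mean was 27.9 ± 12.8 at a fold enrichment of 4.25 ± 0.776 (SD, n = 7), and 0.474% of those promoters were weaker. With lists of equal length the mean percentile was 11.7. The libraries with the longest lists, HPC7-1 and HPC7-8, had the highest values, and HPC7-6, with the shortest list, was the lowest.

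That Cyp27b1 signal came from 2 OCRs. OCR 5, at an exon 129 bp from a start, was in 4 lists, and OCR 6, over coding exon 2168 bp from a start, was in all 7. With promoters cut to 1 kb, the Cyp27b1 promoter therefore held a peak in 4 lists. The strong regions of the window belonged to its neighbours in this gene-rich stretch: OCR 9 (97.8 ± 0.587) lay 80 bp from the start of Cdk4, OCR 4 (91.6 ± 0.969) 66 bp from that of Mettl1 and OCR 13 (91.4 ± 1.72) 38 bp from that of Agap2. OCR 11, with the DR2, was a weak region at 36.2 ± 13.8 (SD, n = 7).

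Cyp24a1 (chr2:170482708-170497145, minus strand) had no promoter peak in any list. Its window held 10 OCRs, 5 of them in all lists, and 60.7% of genes had a lower density of such OCRs. The only region in the gene body was OCR 5, in an intron, found in 5 lists at fold enrichments of 3.04, 3.67 and 5.56 in the VD lists, 5.10 in HPC7-7 and 5.97 in HPC7-8. HPC7-5 and HPC7-6 listed no peak there, so its presence varied among the EtOH lists.

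The strongest regions of the Cyp24a1 window lay upstream of the gene. OCR 8 (85.6 ± 2.84) was the promoter of Pfdn4, a prefoldin subunit gene, 70 bp from its start, and OCR 7 (80.4 ± 2.58) overlapped a promoter of the same gene. OCR 6, whose sequence is printed above, lay 6441 bp upstream of the Cyp24a1 start within annotated Pfdn4 and outside any promoter. Its fold enrichment was 16.0, 14.0 and 22.6 in the VD lists and 12.4, 11.3, 20.1 and 19.7 in the EtOH lists. The lists of both prefixes overlapped there, with percentiles of 74.4 ± 6.27 (SD, n = 7).

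Downstream of Cyp24a1, 37040 bp from its start, lay OCR 1 (chr2:170459943-170460234), the only one of the 136 OCRs with a peak in all 3 VD lists and in none of the 4 EtOH lists. Over the genome 454 OCRs (0.313%) had that pattern and 1 (0.00069%) the opposite one, so the members' share of 0.735% rests on this single region. Those genome counts moved with list length: they were 520 and 38 with lists of equal length, and 525 and 328 without HPC7-1. OCR 1 was weak: its fold enrichment was 2.67, 3.31 and 2.72 in library order, from 56, 17 and 22 reads at the summit, and the percentiles were 17.3, 7.38 and 2.91. The weakest peaks that the EtOH lists hold had 13 to 14 reads at the summit, so a summit with fewer reads than these was not listed there. With each list cut to its 84593 strongest peaks, OCR 1 was in 0 lists.

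**Figure D3:**
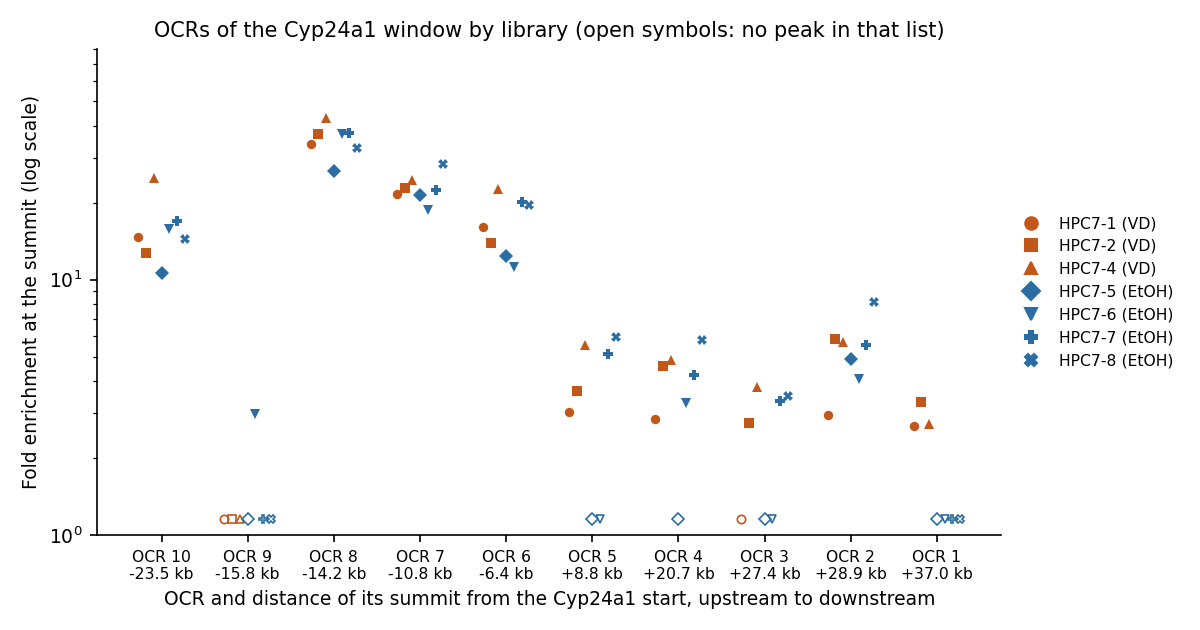
The y axis is the fold enrichment at the summit on a log scale and the x axis the 10 OCRs of the Cyp24a1 window from upstream to downstream, with 1 symbol for each library; open symbols mark lists without a peak. OCR 1 has a peak in the 3 VD lists at 2.67 to 3.31, while OCR 6, OCR 7, OCR 8 and OCR 10 are present in all 7 lists.

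Cyp26a1 (chr19:37697798-37701536, plus strand) also had no promoter peak in any list, and all 10 OCRs of its window lay in the flanks, 6 of them in all lists. The strongest, OCR 9, lay 18135 bp downstream of the start. Its percentile was 89.9, 83.9 and 86.8 in the VD lists and 83.9, 80.8, 83.7 and 86.8 in the EtOH lists, with a mean of 85.1 ± 2.97 (SD, n = 7). Its mean was within 1 SD of that of the Vdr promoter, at a gene whose own start was listed nowhere. OCR 2 (70.1 ± 4.69) and OCR 1 (63.7 ± 6.89) lay upstream, toward Cyp26c1, a related enzyme gene that had no promoter peak either (SD, n = 7). The third gene of this family, Cyp26b1, had a promoter peak in all lists, at 85.6 ± 2.37 (SD, n = 7).

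Neither target gene outside the enzymes had a promoter peak as strong as the strongest of each receptor gene. By density the order was not the same, as Cd14 held 0.810 OCRs in all lists per 10 kb and Rxra 0.683. Trpv6 (chr6:41620624-41636405, minus strand) had no promoter peak in any list and the sparsest window, with 2 of 5 OCRs in all lists (0.264 per 10 kb, and 34.3% of genes had fewer). Of these, OCR 1 (92.5 ± 1.80) was the promoter of Ephb6, 69 bp from its start, and OCR 4 (53.4 ± 11.4; SD, n = 7) lay 18417 bp upstream of Trpv6. The only region within the gene was OCR 3, over coding exon and an Ephb6 promoter, with fold enrichments of 2.62, 3.79 and 3.50 in HPC7-1, HPC7-4 and HPC7-8.

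Cd14 (chr18:36725067-36726798, minus strand), a gene of monocytes and macrophages, had a promoter peak of middling strength over its coding exon, OCR 7, 409 bp from the start. The percentile was 76.3, 61.2 and 69.9 in the VD lists and 57.6, 59.4, 73.2 and 69.5 in the EtOH lists. The mean of 66.7 ± 7.30 (SD, n = 7), at a fold enrichment of 11.5 ± 2.36, was above that of 10.2% of the promoters with a peak in all lists. A second promoter region, OCR 8, was in 1 list. The strong regions of the window were OCR 10 (95.9 ± 0.85) at the start of Tmco6, OCR 13 (95.3 ± 1.00) 35 bp from that of Ndufa2, and OCR 11 (81.9 ± 3.34) between genes.

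Ordered by the percentile of the highest promoter peak, the genes stood as Rxrb, Rara, Rxra, Vdr, Cd14 and Cyp27b1. The ranges of neighbours in this order did not overlap, with the exception of Rxra and Vdr. Their means of 88.4 and 86.1 differed by about the SD, although Rxra was the higher of the pair in 7 of 7 libraries. For Rxra that peak was at the internal promoter region, OCR 10. Its OCR 3, at the 5′ end of the gene, stood below the Vdr promoter in every library, and its range overlapped that of Cd14. The 3 genes whose promoters followed that of Vdr most closely across the libraries were Lrrk1, Errfi1 and Prr5, with mean absolute differences of 0.227, 0.374 and 0.409 percentile points over 7 libraries. The 7 points of each gene share their libraries, and with them the list lengths.

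The lists marked VD and EtOH were then compared, by the letters that begin the peak names. The names also carry a number, and HPC7-1, HPC7-2 and HPC7-4 share theirs with HPC7-5, HPC7-6 and HPC7-8. At the promoters no difference exceeded the spread between libraries. The mean percentile of the VD lists was higher by 0.504 points at Vdr (86.4 against 85.9), 0.229 at Rxra (88.5 against 88.3), 0.724 at Rara (95.1 against 94.4) and 4.17 at Cd14 (69.1 against 64.9). It differed by -0.119 points at Rxrb (98.5 against 98.6) and by -2.66 at Cyp27b1 (26.4 against 29.0). Exact two-sided permutation tests over the 35 splits of 3 against 4 libraries gave p from 0.4 (Cd14) to 0.971 (Rxra), and the smallest p this design allows is 0.0571. Within the 3 same-number pairs the VD list was the higher in 3 of 3 at Cd14, by 6.93 ± 10.2 points (SD, n = 3 pairs), most of it from HPC7-1 against HPC7-5 (76.3 against 57.6), as the other pairs stood at 61.2 against 59.4 and 69.9 against 69.5. It was the higher in 2 of 3 pairs at each of the other genes, and 0.25 is the smallest p that an exact sign-flip test of 3 pairs allows. At 0 of the 6 genes did the VD lists lie wholly above or below the EtOH lists, against 0.872% of promoters above and 0.0677% below.

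Percentiles among all peaks move with the length of the list, and HPC7-1, a VD list, is the longest. The percentile was therefore also taken among the 66979 OCRs present in all lists, and the median difference of all these OCRs (VD minus EtOH) moved from 1.21 points to -0.19. On that scale the differences at Vdr and Rxra turned to -0.594 and -0.897 points, and that at Cyp27b1 was -3.81 (exact permutation p = 0.114). Again 0 of the 6 promoters had the VD lists wholly above (1.88% of promoters) or wholly below (2.16%). Without HPC7-1 the differences among all peaks were -0.995 points at Vdr, -1.22 at Rxra, -0.502 at Rara, -10.7 at Cyp27b1 and 0.575 at Cd14. Without HPC7-2 the difference at Cd14 was 8.14, and without HPC7-6 those at Vdr and Rxra were -0.434 and -1.18. At Rxrb it was 0.313 without HPC7-4, and at Cyp27b1 1.65 without HPC7-8. The direction thus turned with 1 library left out at each of these promoters except that of Cd14.

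Over all OCRs present in every list, limma called 0 of 66979 (0%) at an adjusted p below 0.05 on the scale of all peaks, and 0 of the 75 member OCRs. At an unadjusted p below 0.05 it found 1 of the 75, Cyp26a1 OCR 3, and 1.56% of all. The VD lists had the higher mean at 57 of the 75 (76.0%), against 75.1% of all OCRs, and the median difference was 1.06 points, against 1.21. Without HPC7-1 the medians were -1.06 and -0.621, and without HPC7-6 -0.181 and -0.0617. Of the 75, 0 had all VD lists above all EtOH lists (1.64% of all OCRs) and 0 below (0.0239%).

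On the scale of shared OCRs limma called 92 of 66979 (0.137%), all higher in the VD lists, and 0 with the number in the peak names as a block. Of the 75 member OCRs it called 0, and 3 at an unadjusted p below 0.05, against 6.59% of all. The VD lists were higher at 33 of the 75 (44.0%), against 46.0% of all, with a median difference of -0.225 points.

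The lowest p of the windows on that scale belonged to Vdr OCR 20, the region 7607 bp upstream of a Vdr start. Its percentile among shared OCRs was 19.5, 14.2 and 16.3 in the VD lists and 25.3, 33.5, 31.6 and 25.9 in the EtOH lists. The VD lists lay below all EtOH lists, as at 2.98% of all OCRs, with means of 16.7 and 29.1, a difference of -12.4 points (SE 2.60) and an adjusted p of 0.276 by limma. Among all peaks the prefixes overlapped at this region (58.5, 31.6 and 41.7 against 45.8, 44.5, 55.0 and 57.6), and the difference was -6.79 points with an adjusted p of 1.00. It ran from -14.1 points without HPC7-1 to -0.641 without HPC7-2. With the block the difference among shared OCRs was -11.5 (SE 3.28, limma adjusted p = 0.463), and Cyp26a1 OCR 3 then had the lower p (limma adjusted p = 0.367). Cd14 OCR 11 was the other region wholly below, by -2.74 points (70.9 against 73.6, limma adjusted p = 0.870).

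One member region lay wholly above, Cyp26a1 OCR 9, as did 3.92% of all OCRs. Its means among shared OCRs were 79.3 and 76.0, a difference of 3.29 points (SE 1.10, limma adjusted p = 0.618). Cyp26a1 OCR 3, upstream of the same gene, had percentiles among all peaks of 71.2, 64.2 and 66.7 in the VD lists and 54.0, 54.3, 60.8 and 65.0 in the EtOH lists. The prefixes overlapped there, and the difference was 8.88 points among all peaks (SE 3.43) and 8.79 among shared OCRs, with adjusted p of 1.00 and 0.627 by limma. All 6 tested Cyp26a1 OCRs were higher in the VD lists among all peaks, with a median of 4.42 points, and 4 of 6 were among shared OCRs, with a median of 3.05, though none passed the test.

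**Figure D4:**
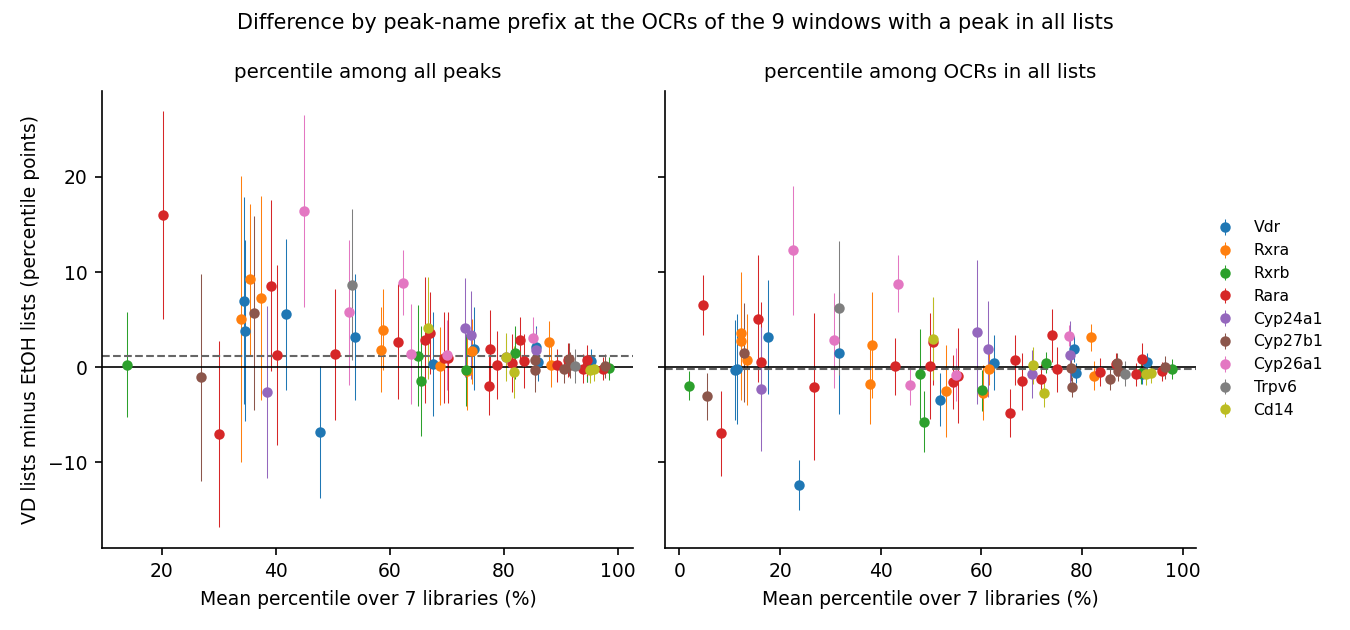
The y axis is the mean percentile of the VD lists minus that of the EtOH lists, in points, and the x axis the mean over 7 libraries, for the 75 member OCRs present in all lists, by gene; the left panel uses percentiles among all peaks and the right one those among shared OCRs, and the dashed line is the median of all 66979 OCRs. The points scatter around that line (1.21 on the left, -0.19 on the right), and Vdr OCR 20 is the lowest on the right at -12.4.

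The other genes gave medians between -0.185 points (Cd14) and 4.39 (Trpv6, with 2 OCRs) among all peaks. At Vdr 9 of 11 OCRs were higher in the VD lists among all peaks and 5 of 11 among shared OCRs, at Rxra 9 and 5 of 10, at Rara 17 and 10 of 21, and at Rxrb 3 and 1 of 7. At Cyp24a1 the numbers were 4 and 3 of 5, at Cyp27b1 5 and 2 of 8, at Trpv6 2 and 1 of 2, and at Cd14 2 and 2 of 5. No gene had an OCR called on either scale.

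The number of OCRs per window was highest in the longest list at most of the genes. At Vdr it was 21, 12 and 12 in the VD lists and 15, 11, 14 and 16 in the EtOH lists. HPC7-1, with the longest list, had the highest number in every window except that of Cyp24a1, tied with HPC7-8 at Cyp27b1 (13) and Trpv6 (5).

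At Cyp24a1 the order was different: 8, 9 and 9 in the VD lists and 5, 7, 8 and 8 in the EtOH lists. The VD lists had 8.67 ± 0.577 OCRs (SD, n = 3) and the EtOH lists 7 ± 1.41 (SD, n = 4), a difference of 1.67 that an exact permutation test did not separate from the spread between libraries (p = 0.171). Within the same-number pairs the VD list held more OCRs in 3 of 3, by 2 ± 1 (SD, n = 3 pairs, exact sign-flip p = 0.25, the smallest it allows). With lists of equal length the means were 6.33 and 6.50, and the prefixes were apart in 0 of the 9 windows, against 0.932% of genes above and 0.137% below. Differences at the other genes ran from -0.5 (Rara) to 1.33 (Rxra), and in 0 of the 9 windows were the prefixes apart, against 0.407% of all genes with the VD lists above and 0% below. Without HPC7-1 the VD lists lay above at Cyp24a1 (9 against 7), as at 0.498% of all genes, and below at Rara (22.5 against 25.5), as at 2.22%.

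**Figure D5:**
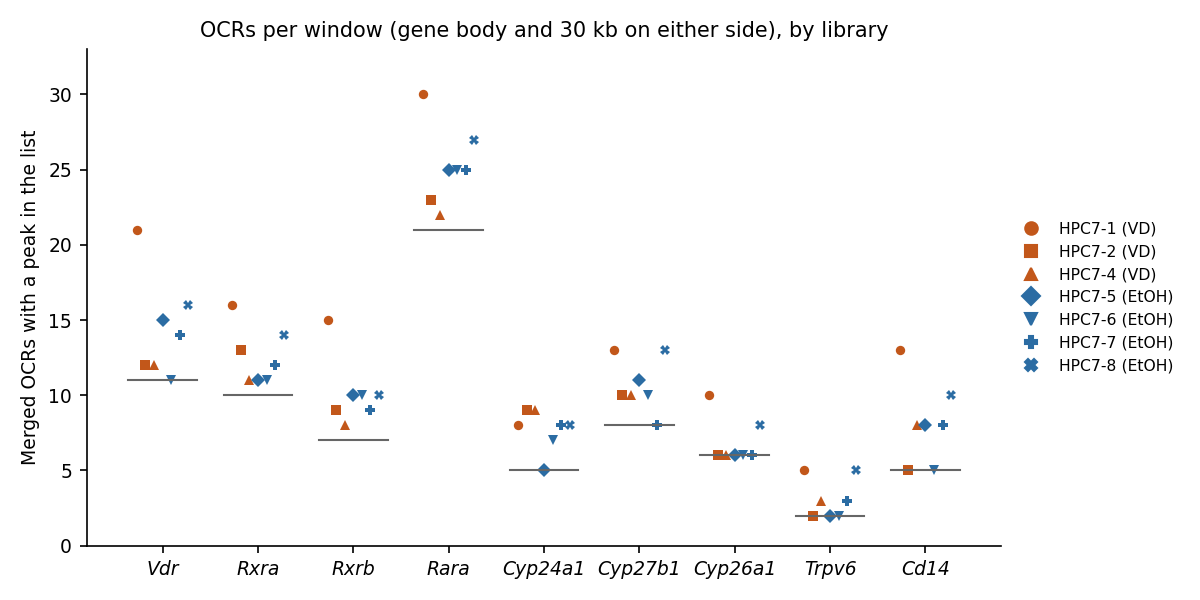
The y axis is the number of merged OCRs of the window with a peak in the list, for the 9 genes on the x axis, and each point is 1 library. HPC7-1 is the highest or tied in every window except that of Cyp24a1, where HPC7-2 and HPC7-4 have 9.

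The remaining genes of the pathway were read from 5 lists. Over all 21884 genes 60.8% had a promoter peak in all 7 libraries and 7008 genes had none. All 10 receptor coregulators had a promoter peak in all lists, from Ncoa1 (88.6) and Snw1 (89.6) to Nrip1 (95.3) and Ncoa2 (99.6). Of 10 further nuclear receptors 5 had one, with Nr1h2 (97.7) and Ppard (95.4) the strongest and Thra (91.4) and Rarg (91.5) the weakest. With promoters of 1 kb Nr1h2 stood at 91.6, below Ppard (95.4) and Nr1h3 (93.2). Rxrg, Rarb and Ppara had no promoter peak in any list. Rxrg and Rarb, which belong to the same families as Rxra, Rxrb and Rara, thus differed from them in having no listed promoter.

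Of 7 genes for vitamin D synthesis and transport 3 had a promoter peak in all lists: Pdia3 (99.7), Dhcr7 (97.7) and Cyp27a1 (58.1). Cyp2r1 and Lrp2 had none. Of 13 genes for retinoid metabolism and transport 5 had one, from Aldh1a3 (54.7) and Stra6 (71.4) to Rdh10 (96.3) and Dhrs3 (96.4), and 6 had none, among them Rbp4 and Lrat. Of 10 further receptor targets 4 had one, Cdkn1a (98.6), Tgm2 (87.1), Cebpe (85.9) and Spp1 (75.4), and 5 had none, among them the calcium channel Trpv5 and the calcium-binding S100g. With promoters of 1 kb Cyp27a1 and Stra6 had a peak in no list, and Tgm2 and Cebpe had one in 6 lists, at percentiles from 10.7 to 46.0 (Tgm2) and from 11.3 to 43.4 (Cebpe).

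In the windows of these lists limma called 0 OCRs on either scale, of 92, 132, 29, 57 and 38 tested for the nuclear receptors, coregulators, vitamin D genes, retinoid genes and targets. Their windows held 730 OCRs outside those of the members, of which 3 (0.411%) were found in all VD lists and no EtOH list, against 0.313% of all OCRs. The one at Nrip1, a corepressor gene induced by retinoic acid, was the strongest (chr16:76380123-76380721, fold enrichments of 10.7, 8.08 and 9.70 in library order). The others were at the coactivator Ncoa2 (chr1:13171218-13171650, with 5.57, 3.67 and 5.56) and at the osteocalcin gene Bglap (chr3:88378687-88379017, with 2.62, 3.31 and 2.96). At Ncoa2 and Nrip1 this signal was above that of Cyp24a1 OCR 1 in each of the 3 lists.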

How the data were processed

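The authors made 1 MACS2 peak list per library from reads trimmed by Cutadapt and mapped to mm10 by BWA; versions and options are not given in the sources used here. The deposited lists hold, for each peak, the fold enrichment (a ratio of summit reads to background) that the authors' caller wrote, with no scaling between libraries. They also hold its deposited -log10 p and -log10 q, and a deposited score derived from the -log10 q. The lowest -log10 q of a list was 1.36 to 1.73. Fold enrichments were whole multiples of 1 step per library (100% within a tolerance of 0.01), from which summit reads and a background of 4.44 to 20.4 reads per library were recovered.

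Peaks were merged at an overlap of 1 bp. Genes and transcript starts were those of GENCODE M21 on GRCm38, whose sequence lengths held all peaks of the 21 chromosomes. A percentile was the mid-rank of a peak within its list, a merged OCR took the highest peak of each library, and a promoter was 3 kb on either side of any start. Percentiles were compared with limma over the 66979 OCRs present in all 7 lists (Benjamini-Hochberg adjustment, two-sided, adjusted p below 0.05), and promoters and window numbers with exact permutation tests adjusted over all genes, in which every member's adjusted p was 1. The p-values set the difference by prefix against the spread between these libraries, which limma moderates over all OCRs tested.

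The named OCRs were the promoter OCRs of a member, the 3 strongest others present in all lists, any called OCR and any found with 1 prefix alone. Cyp26a1 OCR 3 and OCR 9, Vdr OCR 20 and Cd14 OCR 11, further gene body OCRs and those with a motif or in other genes' windows were named after their values were seen. The members and lists were chosen with earlier results of these data known. Alternatives were shared-OCR percentiles, quantile-normalized log2 fold enrichment, list length as a covariate, a -log10 q of at least 5, equal lists of 84593 peaks, OCRs in 2 or more lists, windows of 10 kb or the gene body, 1 kb promoters, a summit inside the window, 100 base motif windows and each library left out. A block on the number in the peak names was added after seeing the data: deviations of same-numbered libraries correlated at 0.593, 0.158 and 0.139, although HPC7-4 correlated most with HPC7-7 (0.308), and the pairing rests on these values and names alone. For promoters and window numbers the block was the mean over the 3 same-number pairs, without HPC7-7. Statistics were tested on simulated data. A marker gene and a gene of the retinoid list are not reported here. Software was R 4.3.3 with limma 3.58.1, and Python 3.11.15 with scipy 1.17.1, pandas 2.3.3, numpy 2.4.6 and matplotlib 3.10.9.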

Additional observations from a re-analysis of the deposited data

Results flagged for a closer look

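Of 41 values tested over the 7 libraries, 3 had an extreme library whose gap to the nearest other was a larger share of the range than Dixon's critical value, and chance marks about 1 in 20. The number of OCRs in the Rxrb window was 15 in HPC7-1 and 8 to 10 in the other libraries (a gap of 0.7143 of the range). At Rara OCR 18, the intronic region, the percentile of 89.3 in HPC7-1 stood above the others, which lay between 80.5 and 84.3 (0.5732). At Cyp24a1 OCR 8, the Pfdn4 promoter, the percentile of 79.5 in HPC7-5 stood below the others, which lay between 85.3 and 87.4 (0.7403). HPC7-1 also had the longest list and the highest background, and the part of these in the first pair of values was not tested.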

How the results depend on the processing

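No member OCR was called under any alternative run. Over all OCRs the calls rose from 0 to 92 (percentile among shared OCRs), 266 (log2, quantile normalized), 75 (equal lists) and 158 (OCRs in 2 or more lists, 0 where none); the replicate block took the 92 to 0, left the main count at 0 and was not run with the other settings. Smaller windows left 77 OCRs (10 kb), 44 of them in all lists, or 39 (gene body), 22 of them in all lists. In 100 bases 1 member OCR held a direct repeat, 13 AGATAA (9.56%, against 7.46% of all OCRs) and 22 GAGGAA (16.2% against 16.6%), so that both changed sides of the genome share.

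Promoter differences turned to -0.594 (Vdr) and -0.897 (Rxra) points among shared OCRs. Differences in window numbers turned with equal lists to -0.5 (Vdr), -0.917 (Rxrb), -0.167 (Cyp24a1) and -0.583 (Cyp27b1). With 1 library left out, promoter differences ran from -0.995 to 1.45 (Vdr), -1.22 to 1.37 (Rxra), -0.590 to 0.313 (Rxrb), -0.502 to 1.87 (Rara), -10.7 to 1.65 (Cyp27b1) and 0.575 to 8.14 (Cd14). Window numbers ran from 1 to 2 (Cyp24a1, lowest without HPC7-5), and from -2 to 2.5 (Vdr), 0 to 2.5 (Rxra), -1.25 to 2.25 (Rxrb), -3 to 1 (Rara), -0.5 to 1.33 (Cyp27b1), -0.5 to 1.5 (Cyp26a1), -0.5 to 1 (Trpv6) and -1.25 to 2.75 (Cd14), these lowest without HPC7-1. As mean of the same-number pairs (replicate block), Cyp27b1 turned to 0.416 (promoter) and -0.333 (window number). With equal lists the promoter percentiles moved to 82.9 (Vdr), 11.7 (Cyp27b1) and 59.3 (Cd14). In all, 27 values of single genes turned. The cause was not tested. The 17 OCRs listed in HPC7-1 alone, the library with the deepest background, have no value in the other lists and were not compared.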

Other observations

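Over the genome, the 454 OCRs with a peak in all 3 VD lists and no EtOH list held a DR3, the spacing known to favour the vitamin D receptor with its RXR partner, in 41 cases (9.03%), against 0.146% of all merged OCRs. The other spacings were found in 0.441% (DR1), 0.661% (DR2), 1.10% (DR4) and 0.661% (DR5) of the same OCRs. With lists of equal length a DR3 was in 38 of 520 such OCRs (7.31%) and in 0 of the 38 with the opposite pattern. Without HPC7-1 it was in 41 of 525 (7.81%) and in 0 of 328. Of the 92 OCRs called by limma among shared OCRs, 7 held a DR3 (7.61%), 3 a DR4 (3.26%) and 2 a DR1 (2.17%), against 0.124% and 0.176% of all OCRs for the latter 2. In the central 100 bases a DR3 was in 22 of the 454 (4.85%) and in 1 of the 92 (1.09%), against 0.0593% of all OCRs. Cyp24a1 OCR 1, the member region with this pattern, held no DR3 of the exact half-sites searched in its 300 bases. Repeats with a mismatch in a half-site were not searched at any region. These are counts of letters at regions selected by the prefix, no test was made, and they do not say what the prefixes stand for.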
